A study of Mus musculus with 4 samples.

Results

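Small leucine-rich proteoglycans are compact secreted proteins that sit on collagen fibrils. Their genes were followed here in primary calvarial osteoblast cultures labelled Runx3f/f/Col1a1-cre or wild type. The family was chosen by name, with earlier results of these data known. It holds the 10 genes Dcn, Bgn, Lum, Fmod, Ogn, Aspn, Omd, Kera, Prelp and Podn. Each was read from the array feature that carried its symbol alone and was brightest over the 4 arrays. All 10 had such a feature and all 10 lay above the detection floor, among 22180 genes with a feature of their own and 17841 above the floor. The floor was a deposited level of 4.71, the 90th percentile of the features for olfactory and vomeronasal receptors, and a gene was tested when at least 2 arrays exceeded it.

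Cells from the skull vault of newborn mice were grown for 21 days in medium with ascorbate and glycerol phosphate, and total RNA of each culture was read on its own Affymetrix Mouse Gene array. The mutant-labelled group carries floxed Runx3 alleles and a Cre driven by Col1a1, and so by the collagen gene of osteoblasts and other fibre-forming cells, while the other group is labelled wild type. Each group has biological replicates 1 and 2, so there were 2 arrays per group. The labels do not say whether replicates came from separate animals or litters, nor whether the wild type carried floxed alleles without Cre, so p-values measure only the spread between these arrays. The tissue tag of all samples reads myoblast against an osteoblast title and cell type. All 7 osteoblast markers with a feature passed the floor, and so did 5 of 6 myoblast markers, so the floor does not separate the labels. The mean level per array was 9.46 to 10.31 for the osteoblast markers and 5.73 to 6.37 for the myoblast markers. The median of all features was 5.45 to 6.08, although each feature has its own brightness. Among the myoblast markers Myod1 held equal values within each replicate, and Des, which muscle and other contractile cells express, differed by 0.51 and 0.25.

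The family belongs to the matrix that osteoblasts lay down before mineral is deposited. The core proteins consist mainly of leucine-rich repeats that form a curved surface; several carry chondroitin, dermatan or keratan sulfate chains. By binding collagen they influence how fibrils grow and pack, and several also bind growth factors of the transforming growth factor beta family. Mice without biglycan lose bone mass with age.

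The promoters are shown because Runx3 is a Runt-family factor whose core site reads TGTGGT or TGCGGT. RefSeq promoter entries (GRCm38.p6) were matched for 8 of the 10 genes, as 9 windows because Podn has 2 starts; Dcn and Lum had no entry. Over the 250 bases before the start, on both strands, TGTGGT was present in 14% and TGCGGT in 5.1% of all 32851 windows of that length, and either in 18.6%. A match was found in 2 of the 9 windows. Ogn held TGTGGT, written on the opposite strand as ACCACA, beginning 65 bases before the start, and Fmod held TGCGGT, written as ACCGCA, beginning 38 bases before it. Each of these 2 windows held 1 match. Podn and Kera, which had the largest differences between the groups in opposite directions, held neither spelling. Binding was not measured, and no relation between a match and a difference was tested. For Podn the window of the outermost start is shown; that of the inner start held neither spelling as well. These 4 windows are printed 5′ to 3′ in the direction of the gene, with the core in capitals.
Ogn, chr13:49607765-49608014, plus strand: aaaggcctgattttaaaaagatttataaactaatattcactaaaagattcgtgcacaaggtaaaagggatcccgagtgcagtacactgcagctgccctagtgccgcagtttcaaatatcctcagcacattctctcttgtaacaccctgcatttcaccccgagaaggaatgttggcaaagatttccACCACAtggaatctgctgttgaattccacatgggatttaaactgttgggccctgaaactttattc
Fmod, chr1:134037004-134037253, plus strand: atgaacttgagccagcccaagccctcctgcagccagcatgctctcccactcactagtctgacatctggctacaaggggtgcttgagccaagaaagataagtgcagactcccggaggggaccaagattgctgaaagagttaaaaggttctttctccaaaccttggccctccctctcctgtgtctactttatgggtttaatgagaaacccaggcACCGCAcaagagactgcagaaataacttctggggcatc
Podn, chr4:108031955-108032204, minus strand: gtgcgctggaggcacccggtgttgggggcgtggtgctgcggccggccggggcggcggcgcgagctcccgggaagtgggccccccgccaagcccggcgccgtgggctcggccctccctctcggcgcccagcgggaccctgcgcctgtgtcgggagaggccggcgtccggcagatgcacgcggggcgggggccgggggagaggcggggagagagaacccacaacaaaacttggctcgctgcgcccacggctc
Kera, chr10:97606955-97607204, plus strand: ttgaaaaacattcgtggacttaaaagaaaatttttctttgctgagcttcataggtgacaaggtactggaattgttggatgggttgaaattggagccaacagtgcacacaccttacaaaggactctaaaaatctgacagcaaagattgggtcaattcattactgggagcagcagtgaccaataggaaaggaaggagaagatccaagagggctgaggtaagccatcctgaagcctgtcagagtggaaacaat

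The comparison asked whether genes of this matrix family depend on Runx3 in osteoblasts. No member was at least 1.5-fold apart in either replicate, and none passed the test. Most were bright, and 6 of 10 lay within 0.1 log2 of wild type in both replicates, against 54.6% of all tested genes, so this share was close to the background. Among these 6, Dcn, Fmod, Ogn and Omd held exactly equal values on the arrays of replicate 2, which does not establish that they were unchanged. The widest difference in any member was -0.43, in Kera within replicate 2. Over the 10 members the median log2 difference was 0.03, with 0.05 within replicate 1 and 0 within replicate 2, where the median of all tested genes was 0. The median size of the difference, whatever its sign, was 0.06 log2 for the members and 0.04 for all tested genes.

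In limma, fitted over all 17841 genes with Benjamini-Hochberg adjustment, 0 members and 0 genes (0%) passed an adjusted p of 0.05. At an unadjusted limma p under 0.05 in this fit there were 0 members and 707 genes (3.96%). A difference of 1.5-fold or more with 1 sign in both replicates was seen in 469 genes (2.63%), 263 higher (1.47%) and 206 lower (1.15%), and 0 of these were members. An exact permutation test of 2 arrays against 2 cannot give a two-sided p below 0.33. The median level over tested genes was 7.53 on each replicate 1 array and 7.81 on each replicate 2 array. This offset also ran through the family, as 9 of 10 members were higher in replicate 2 than in replicate 1 in both groups. In 8 of the 10 it exceeded the difference between the groups. The same shares were not counted over all tested genes, so neither count sets the members apart from them.

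Runx3 itself read 7.94 and 8.06 on the mutant-labelled arrays against 7.45 and 7.87 in wild type. It was therefore not lower where the deletion is labelled, and since the deleted exons are not given, a feature spanning the gene may not check the deletion. Directions below are those of the arrays labelled mutant.

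**Figure D1:**
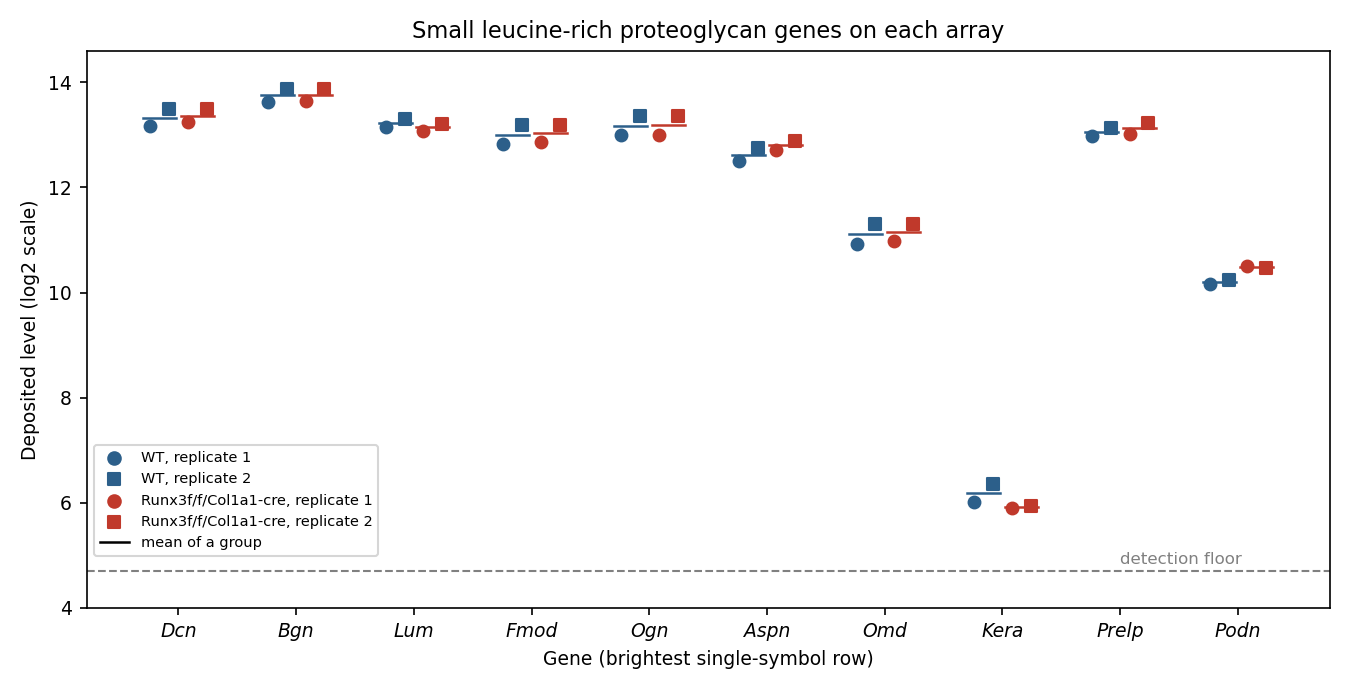
Deposited level on the log2 scale (vertical axis) of the 10 small leucine-rich proteoglycan genes (horizontal axis) on each array. Blue marks are wild type and red marks Runx3f/f/Col1a1-cre, circles replicate 1 and squares replicate 2, short lines the mean of the 2 arrays of a group, and the dashed line the floor of 4.71. Only Podn (mutant-labelled higher) and Kera (mutant-labelled lower) have groups that do not overlap; heights of different genes are not comparable, since each feature has its own brightness.

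Decorin, biglycan and asporin form the class that resembles decorin most closely. Dcn, whose product wraps type I collagen fibrils and binds transforming growth factor beta, read 13.24 and 13.49 on the mutant-labelled arrays and 13.16 and 13.49 in wild type, replicate 1 first. The groups overlapped, and the replicate 2 arrays held exactly the same value. The fitted log2 difference was 0.04 (SE 0.19, 95% interval -0.53 to 0.60, limma adjusted p = 1).

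Bgn encodes biglycan, the family member best known for its part in bone mass. It read 13.65 and 13.87 against 13.62 and 13.88, so the mutant-labelled array was higher by 0.03 in replicate 1 and differed by -0.01 in replicate 2. A second feature for Bgn was dimmer and differed by 0.02 and 0.11. Bgn lies on the X chromosome, and sex-linked RNA differed between the same arrays: Xist was at -1.28 and -1.42 within the replicates, and Kdm5d, Eif2s3y and Uty on the Y chromosome were between 1.90 and 2.66 higher. Every gene here was compared between these same arrays, so the sex-linked difference goes with the group label throughout and cannot be told apart from it. Its part in the values of Bgn, of the other members or of the lists was not tested.

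Aspn encodes asporin, which lacks the sugar chain of its relatives, binds calcium and collagen, and restrains growth factor signalling. It read 12.71 and 12.89 on the mutant-labelled arrays against 12.50 and 12.75 in wild type. Within each replicate the mutant-labelled array was the higher, by 0.21 and 0.14, but the groups overlapped because wild-type replicate 2 exceeded mutant-labelled replicate 1. The log2 difference of 0.18 (SE 0.16, limma adjusted p = 1) was about the size of the offset between replicates, 0.21.

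The class of fibromodulin and lumican carries keratan sulfate on several of its members. Fmod, which shapes collagen fibrils in tendon, read 12.87 and 13.18 against 12.82 and 13.18. Its differences were 0.05 and an exact 0, and its dimmer second feature differed by 0.04 and 0.01. Lum, which spaces the fibrils of the cornea and is also made by osteoblasts, read 13.08 and 13.20 against 13.15 and 13.29. Its differences of -0.07 and -0.09 had the same sign and nearly the same size in both replicates, and the groups overlapped.

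Prelp, whose basic end binds heparan sulfate and anchors basement membranes to collagen, read 13.02 and 13.23 against 12.98 and 13.12. The mutant-labelled array was higher by 0.04 and 0.11. The dimmer feature for Prelp was exactly equal in both replicates, at 6.43 and 7.0. Omd encodes osteomodulin (osteoadherin), a keratan sulfate proteoglycan of mineralized tissue that binds cells through an integrin. It read 10.98 and 11.31 against 10.92 and 11.31, again with equal values in replicate 2. On the same arrays 4 of 7 osteoblast markers were lower and 1 higher within both replicates, and their mean level was 9.46 and 9.74 on the mutant-labelled arrays against 10.10 and 10.31. Ibsp, Dmp1, Phex and Bglap, genes of mineralizing osteoblasts, stood at -1.55, -1.46, -0.83 and -0.54, the factor gene Sp7 at 0.19, and Col1a1 and Alpl at -0.01 and -0.03. Their part in the values of the family was not tested.

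Kera encodes keratocan, a corneal keratan sulfate proteoglycan. Its feature was dim, reading 5.89 and 5.93 on the mutant-labelled arrays against 6.01 and 6.36 in wild type. The groups did not overlap, which held for 9.25% of all tested genes in that direction. The differences of -0.12 and -0.43 were unequal, and the log2 difference was -0.27 (SE 0.17, 95% interval -0.78 to 0.23, limma adjusted p = 1).

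Ogn encodes osteoglycin (mimecan), first isolated from bone, and belongs to a separate class. It read 13.00 and 13.37 against 12.99 and 13.37. This was the smallest difference of the family in size, 0.01 in replicate 1 and an exact 0 in replicate 2. The promoter window of Ogn held TGTGGT, and whether that bears on the difference was not tested.

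Podn encodes podocan, of a further class, which restrains smooth muscle cell growth. It read 10.50 and 10.47 on the mutant-labelled arrays against 10.15 and 10.24 in wild type. Both mutant-labelled arrays lay above both wild-type arrays, as in 7.66% of all tested genes. The differences were 0.35 and 0.23, or 1.27-fold and 1.17-fold, and the log2 difference of 0.29 (SE 0.12, 95% interval -0.06 to 0.64) did not pass (limma adjusted p = 1). Podn also had the smallest offset between replicates among the members, 0.03.

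**Figure D2:**
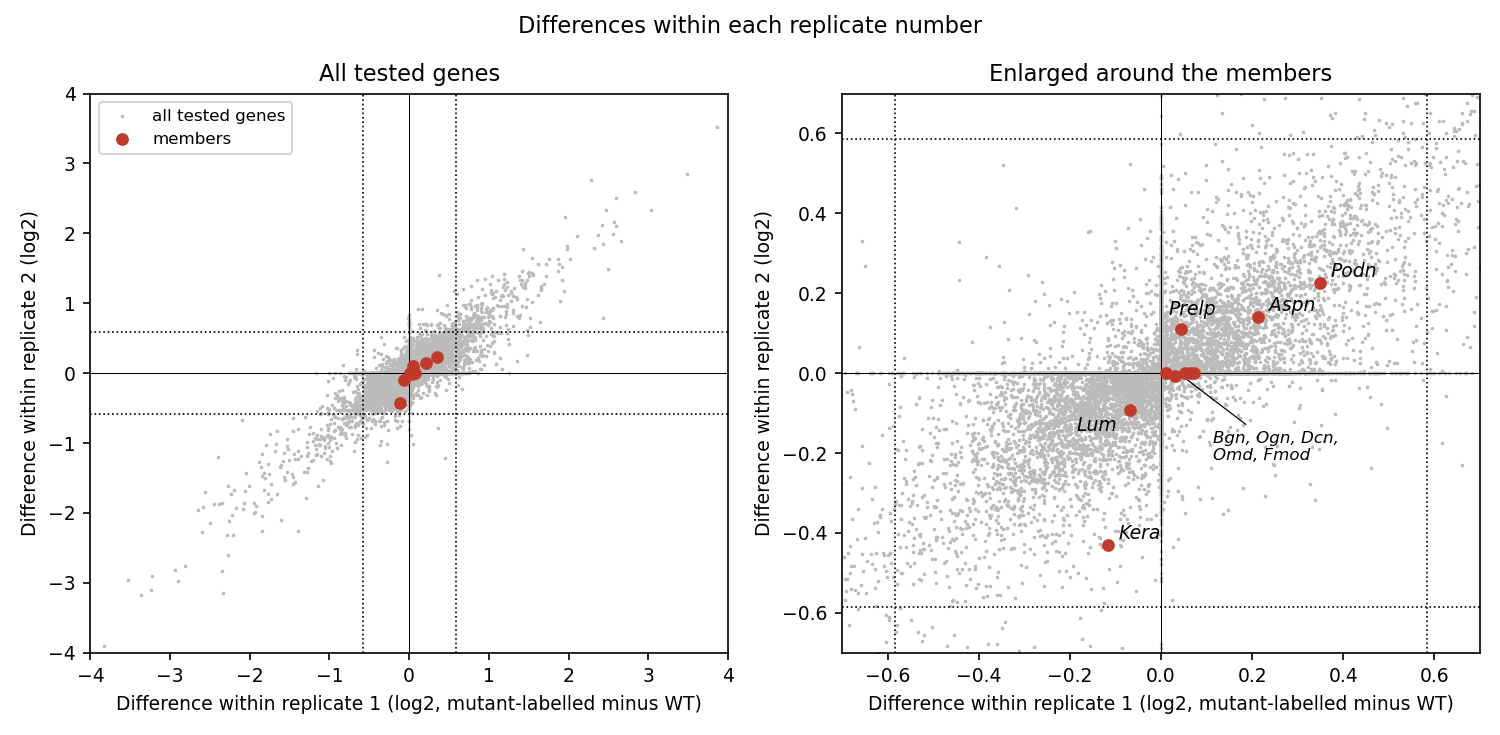
Log2 difference, mutant-labelled minus wild type, within replicate 1 (horizontal) and within replicate 2 (vertical), for all 17841 tested genes (grey) and the 10 members (red); the right panel enlarges the centre, and dotted lines mark 1.5-fold. All members lie inside the dotted lines, with Podn and Aspn on the higher side, Kera and Lum on the lower side, and 4 members exactly on the line of 0 in replicate 2.

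Of the members, 3 were higher within both replicates (Aspn, Prelp and Podn), 2 were lower within both (Lum and Kera), 4 were equal in replicate 2 (Dcn, Fmod, Ogn and Omd), and Bgn differed in sign between the replicates. Among all tested genes 16.8% were higher and 19.5% lower within both replicates. Exactly equal values occurred in replicate 2 for 50.2% of tested genes and in replicate 1 for 35.8%, where 0 members had them. In both replicates at once they occurred for 25.7% of tested genes and for 0 members. Why arrays share values is not stated in the labels, so an equal value does not establish that a gene was unchanged. The limma 95% interval lay inside 1.5-fold in either direction for 3 of 10 members, Bgn, Lum and Prelp, against 37.7% of tested genes. For the other 7 a difference of that size was not excluded by this fit, which keeps the offset between replicates in its error and so gives wide intervals.

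Of the 10 members, 7 had mean levels above 12, where the arrays topped out between 13.8 and 14.1. Among the 327 tested genes above 12, a level chosen after the values were seen, 1.53% reached 1.5-fold with 1 sign in both replicates and 62.7% lay within 0.1 log2 in both. Whether the scale narrows differences at such levels was not tested.

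Most of the genes stand side by side in the mouse genome. In the RefSeq gene order Dcn, Lum, Kera and Epyc follow each other on chromosome 10, Ecm2, Aspn, Omd and Ogn on chromosome 13, and Optc, Prelp and Fmod on chromosome 1. Along the chromosome 10 run the log2 differences were 0.04, -0.08, -0.27 and -0.57 in that order. Along chromosome 13 they were 0.01, 0.18, 0.03 and 0.01. In the chromosome 1 run Optc stood at 0.39 beside Prelp at 0.08 and Fmod at 0.03. No test was made of the order or of likeness between neighbours.

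**Figure D3:**
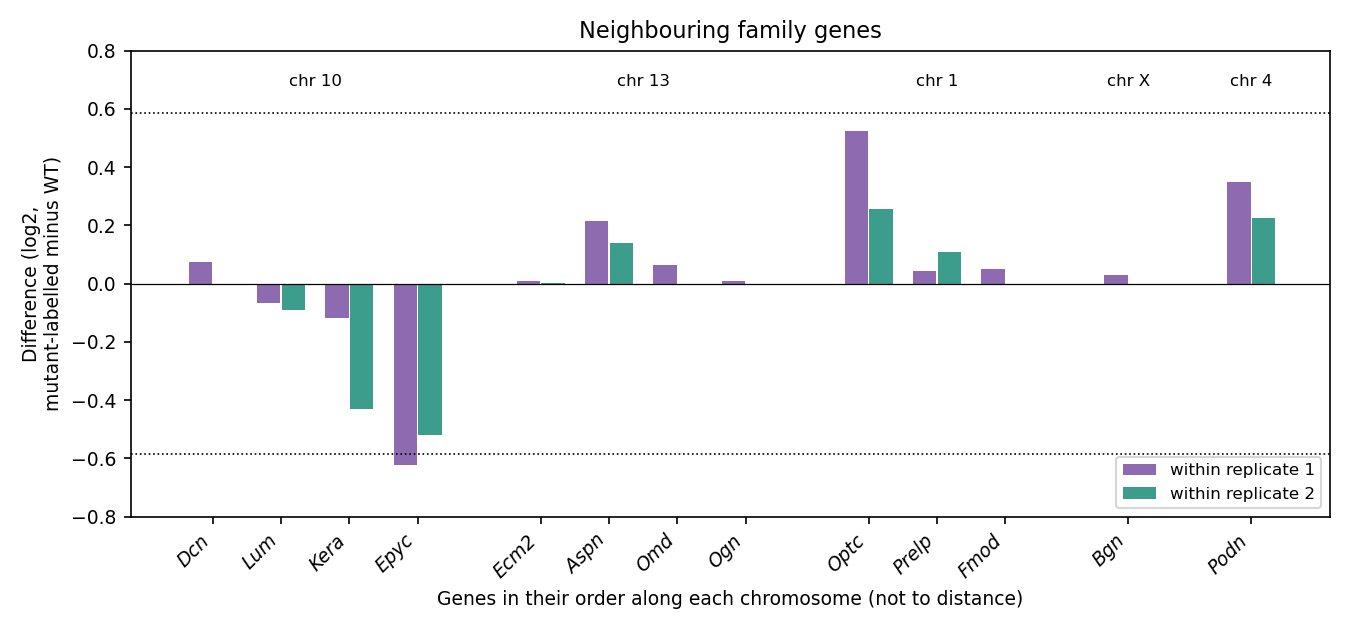
Log2 difference, mutant-labelled minus wild type, within replicate 1 (purple bars) and replicate 2 (green bars) for family genes in their order along each chromosome; spacing is not to distance, and dotted lines mark 1.5-fold. Epyc has the longest bar of each replicate, -0.62 and -0.52, at the end of the run that begins with Dcn, while in the chromosome 13 run the longest bar is 0.21, for Aspn.

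Epyc, which encodes the cartilage proteoglycan epiphycan and was among 8 further family genes outside the 10 (7 with a feature, 7 tested), had the largest difference of the wider family. It read 10.87 and 11.13 on the mutant-labelled arrays against 11.49 and 11.65 in wild type. The groups did not overlap, as in 9.25% of all tested genes in that direction, and the log2 difference was -0.57 (SE 0.16, limma adjusted p = 1). Chondrocyte markers were lower on the same arrays: 4 of 6 were lower within both replicates and 0 higher, and their mean level was 7.95 and 8.17 on the mutant-labelled arrays against 8.57 and 8.81. Their part in the Epyc value was not tested. Optc, which encodes opticin of the vitreous body, differed by 0.52 and 0.26, and Podnl1, the closest relative of Podn, by 0.29 and 0.11. These groups overlapped.

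Across the 4 arrays, the genes whose centred values lay closest to those of Podn were Nfatc4, Slc25a37 and Ago3, at Euclidean distances of 0.021, 0.034 and 0.039 log2. For Kera they were Fcrls, Ercc6l and Fcna, at 0.020, 0.053 and 0.068. With 4 arrays such closeness describes these values only.

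No enzyme that builds the sugar chains reached 1.5-fold in both replicates. Of 20 tested genes of chondroitin and dermatan sulfate synthesis, 11 were lower and 3 higher within both replicates, where 19.5% and 16.8% of all tested genes were, with a median of -0.08, and 0 passed the adjusted threshold. The lowest was Chst7, a chondroitin sulfotransferase, at -0.26, followed by Chst11, which sulfates chondroitin in cartilage and bone, at -0.22, and B3galt6, which extends the linker between chain and protein, at -0.21. Chst3, another sulfotransferase, was at 0.39. Of 8 genes of keratan sulfate synthesis, 2 were lower and 1 higher within both replicates, not far from those shares. The sulfotransferase genes Chst1 and Chst2 were at -0.47 and -0.31, with mutant-labelled arrays below both wild-type arrays, as in 9.25% of all tested genes. B4galt1, a galactosyltransferase, was at 0.21 (limma adjusted p = 1 for each of these genes).

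Type I collagen, the main partner of these proteins in bone, stood at -0.01 in Col1a1 and -0.02 in Col1a2, both with equal values in replicate 2. Of 16 genes of collagens and fibril partners, 11 lay within 0.1 log2 in both replicates, near the 54.6% of all tested genes, and the median was 0. At least 1.5-fold lower within both replicates, as were 1.15% of all tested genes, were 2 of the 16, Col14a1, a fibril-associated collagen, at -1.07 (limma adjusted p = 0.431) and Col2a1, the cartilage collagen, at -0.95 (adjusted p = 0.678). The others outside 0.1 log2 were Col12a1, a relative of Col14a1, at 0.20, Col5a3 at -0.14 and Col11a1 at 0.06, the last with 0.12 in replicate 1 and 0 in replicate 2.

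Among growth factors and receptors that bind members of the family, 5 of 16 were higher and 6 lower within both replicates, against 16.8% and 19.5% of all tested genes, and 0 reached 1.5-fold in both. Egfr, a receptor for decorin, was at 0.38, Bmp4 at 0.42 and Tgfb2 at -0.46, each with groups that did not overlap (limma adjusted p = 1). Mutant-labelled arrays lay above both wild-type arrays in 3 of the 16 genes and below both in 6. The shares of all tested genes were 7.66% and 9.25%. Tlr2, through which biglycan signals in macrophages, was exactly equal in both replicates, and Tlr4 differed by 0.05 and 0. Macrophage markers were lower on these arrays: 9 of 10 were lower within both replicates, and their mean level was 6.54 and 6.86 on the mutant-labelled arrays against 8.02 and 8.16. In RNA from whole cultures, fewer cells of a type and less RNA per cell cannot be told apart.

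Proteases that cut these proteins held the largest difference among the pathway lists, in Mmp3. Of 11 genes, 2 were lower or higher by 1.5-fold within both replicates, against 2.63% of all tested genes. Mmp3, stromelysin, which degrades decorin, read 4.95 and 5.41 on the mutant-labelled arrays against 7.45 and 7.55, near the floor in the former (log2 difference -2.32, limma adjusted p = 0.312). Adamts4, an aggrecanase that also cuts other proteoglycans, read 8.47 and 8.85 against 7.50 and 7.98 (0.92, adjusted p = 1). Mmp2, Mmp14, Bmp1 and Adamts1 lay within 0.1 log2 in both replicates, Mmp14 with equal values in replicate 2. Mmp13, a collagenase of bone, was at -0.26.

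Among 19 other proteoglycan core proteins, Spock2, a heparan sulfate proteoglycan named testican, was at 1.21 (limma adjusted p = 0.645), and was the single gene of the list at least 1.5-fold apart within both replicates. The glypican genes Gpc6 and Gpc3 were at 0.65 and 0.56. Of the 19, 4 were higher and 9 lower within both replicates, where 16.8% and 19.5% of all tested genes were, and the median was -0.04. Hspg2, which encodes perlecan, held exactly equal values within each replicate. Vcan, which encodes versican, differed by less than 0.01 in replicate 1 and held equal values in replicate 2.

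**Figure D4:**
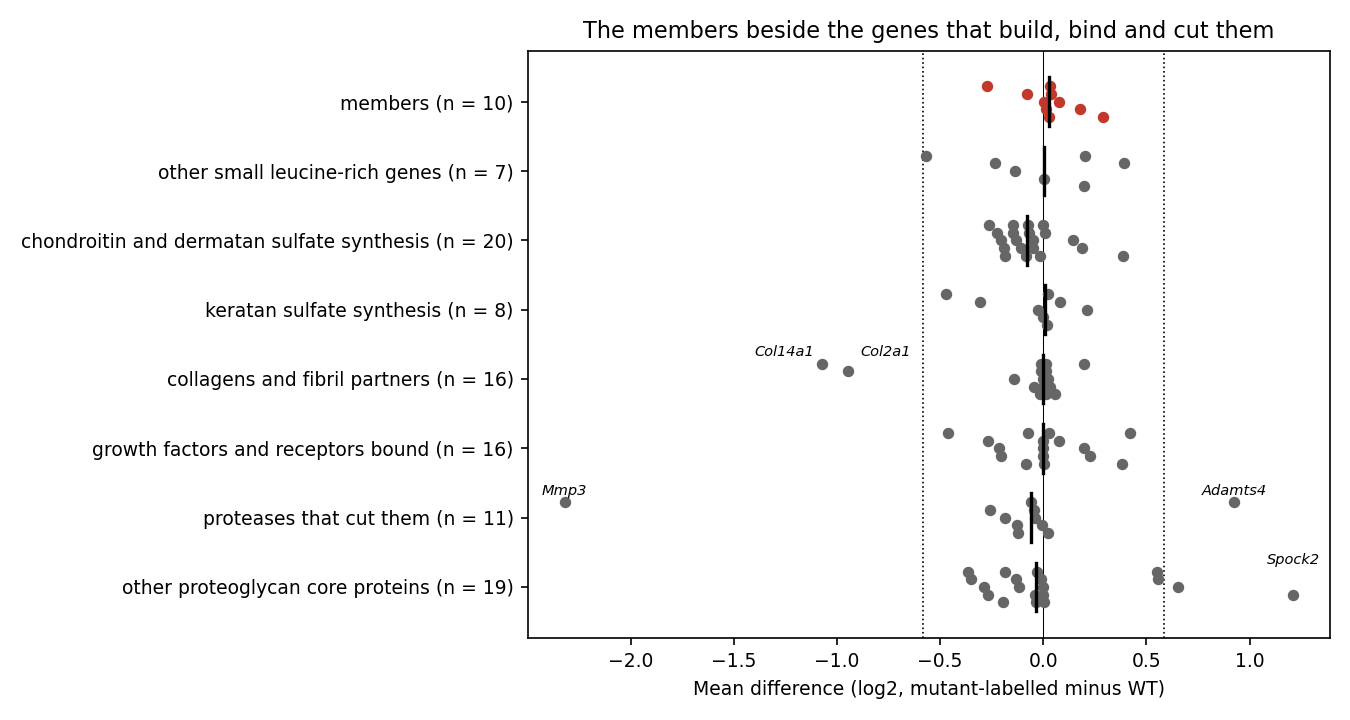
Mean log2 difference, mutant-labelled minus wild type (horizontal axis), of each tested gene in the family and in lists of genes that build, bind or cut its products; red points are the 10 members, black bars list medians, dotted lines 1.5-fold, and vertical scatter within a list has no meaning. The members run from -0.27 to 0.29, while Mmp3 reaches -2.32 and Spock2 1.21; genes at least 1.5-fold apart in both replicates are named.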

How the data were processed

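The deposited table holds 41345 features on 4 arrays, taken as log2 values by their range; Partek and RMA appear in the submitters' processing notes with no version or order, and neither the log base nor the arrays normalized together is stated. Features were named through the platform annotation: 23521 had 1 symbol, 1814 several and 16010 none listed, and only the first kind was used. The brightest feature stood for a gene. Differences were fitted with limma 3.58.1 in R 4.3.3 (lmFit and eBayes, group as the only term, two-sided) over 17841 genes and checked on simulated data; differences within each replicate number are exact subtractions. Members, lists (158 of 165 genes with a feature) and tests were chosen with earlier results of these data known. The naming rule took all members, Runx3, the 3 smallest p values of each list, genes 1.5-fold apart in both replicates, and the 3 closest patterns to 2 members; genes named beyond it (Tlr2, Tlr4, Chst3, Mmp2, Mmp14, Bmp1, Adamts1, Vcan, Hspg2, Col1a1, Col1a2, Col5a3, Col11a1 and markers) were chosen after their values were seen. Marker lists of tendon, adipocyte, endothelial, smooth muscle and epithelial cells had mean differences of 0.09 and 0.09, -0.53 and -0.50, 0.70 and 0.42, 0.11 and 0.08, and 0.54 and 0.48 within replicates 1 and 2, and those of osteoblasts and myoblasts -0.63 and -0.58, and 0.14 and 0.01. The epithelial means follow Cdh1, at 1.62 and 1.57. Krt14 was at -0.08 and 0, and Epcam, below the floor, at 0.07 and -0.12. Within both replicates 2 of 5 endothelial markers were higher and 0 lower. The number of arrays limits the precision, and sex-linked RNA differed between the groups on these arrays.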

Additional observations from a re-analysis of the deposited data

How the results depend on the processing

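In the 8 alternatives that kept all arrays (the replicate block, quantile normalization again with and without it, median centring, both other filters, the mean of a gene's features and an intensity trend), every member kept its direction, 0 members passed the adjusted limma threshold, and 0 were 1.5-fold apart in both replicates. The replicate block, both other filters and the intensity trend leave each difference as it was, so direction and fold could not change there. Only quantile normalization again, median centring and, for Bgn, Fmod and Prelp, the mean of features could change them. Over all genes 399 passed with quantile normalization again and the replicate block, and 49 with the intensity trend; with the replicate block alone 0 did. Deviations of same-numbered arrays from their group means were correlated (Pearson r = 0.92 across genes, which are not independent and include equal values), but no label ties a number to a litter or day. With the replicate block the limma difference of Podn was 0.29 (SE 0.05, adjusted p = 0.441) and of Lum -0.08 (SE 0.01, adjusted p = 0.354). In that fit the 95% interval lay inside 1.5-fold for 8 of 10 members, all but Kera and Podn, and for 78% of tested genes, against 3 members and 37.7% without the block. The width of that interval rests partly on how alike the differences within the replicates are. Dcn, Fmod, Ogn and Omd are among the 8 and held equal values in replicate 2. An equal value does not establish that a gene was unchanged, so their narrow intervals do not exclude a 1.5-fold difference.

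Leaving out an array, or both arrays of a number, keeps the replicate offset in the difference or gives a value with no test. The log2 difference then ran from -0.13 to 0.20 for Dcn, -0.12 to 0.14 for Bgn, -0.15 to 0.21 for Fmod, -0.18 to 0.19 for Ogn, -0.16 to 0.23 for Omd and -0.028 to 0.18 for Prelp, so their signs turned. Podn ran from 0.23 to 0.35, Aspn from 0.05 to 0.30, Kera from -0.45 to -0.10 and Lum from -0.15 to -0.01. The median of the members ran from -0.14 to 0.20, and that of all tested genes from -0.16 to 0.15. The dim Kera feature and the 2 arrays per group limit what these data can resolve.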
